A study of Saccharomyces cerevisiae with 6 samples.

Results

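The gag-pol genes of the Ty retrotransposons of budding yeast were taken by their systematic names from the per-gene tables of read classes, without the use of any measured value. The list held 43 genes, of which 41 were among the 312 genes of these tables: 28 of Ty1, 9 of Ty2, 2 of Ty3 and 2 of Ty4. The remaining 2, YNL054W-B (Ty1) and YLR035C-A, were not analysed here.

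Ty elements are long terminal repeat retrotransposons, which are transcribed by RNA polymerase II from one terminal repeat to the other, and whose RNA is both the mRNA of their proteins and the template that is reverse transcribed and integrated anew. GAG encodes the shell of the virus-like particle and POL the protease, integrase, reverse transcriptase and RNase H, and POL is reached only when ribosomes slip forward at the end of GAG. Ty1, Ty2 and Ty4 belong to the copia group and Ty3 to the gypsy group. Ty1 RNA is among the abundant RNAs of laboratory yeast, and its many copies are nearly identical.

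RNA came from 3 strains of Saccharomyces cerevisiae in log phase, with 2 independent biological replicates each. The fast strain carried rpb1-G1097D, the slow strain rpb1-H1085Y and the WT strain the WT RPB1 gene, in each case on a centromeric plasmid in cells whose chromosomal RPB1 was deleted. RPB1 encodes the largest subunit of RNA polymerase II, and the study asked how its elongation rate affects splicing. All 3 strains also lacked UPF1, a factor of nonsense-mediated decay, and shared a TAP tag on RPB3 and the alleles ura3-52, a Ty1 insertion in URA3, and lys2-128∂, in which a terminal repeat of Ty1 sits in LYS2. The growth rates of the strains were not analysed here. In bulk RNA a change in the number of cells that make a transcript and a change in the amount per cell cannot be told apart. Each strain was compared as a strain, and the Ty copies that each one carries in its own genome were not analysed here.

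Libraries were made from rRNA-depleted total RNA, kept the strand and were read from both ends. The tables held 11033195 and 10916824 reads in fast, 7682741 and 10333540 in slow, and 10610833 and 9666588 in WT. Relative to the first WT library the library totals were 1.11 and 1.12 in fast, 1.19 and 1.30 in slow, and 1.04 in the second WT library. A normalised read count is the read count divided by this relative total. Reads of the 3 mitochondrial genes in the tables made up 0.00652% and 0.00682% of the table reads in slow, against 1.12% and 1.45% in WT, and their part in the results was not tested. Of 86 ribosomal protein genes 68 were lower in slow than in WT, with a median log2 change of -0.54. This count rested on the fit. It was 26, with 7 higher and a median of -0.05, when libraries were scaled by the table without the frameshift and mitochondrial genes. It was 12 when only slow and WT were fitted, 73 under TMM scaling and 83 with DESeq2. Without WT replicate 1 the median was -0.43.

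The slip at the end of GAG takes place on a run of 7 bases, and the annotation gives it as a gap of 1 base between the coding parts, which the tables treat as exon 1 (GAG) and exon 2 (POL). No read class of these genes therefore stands for splicing. Among the 42 listed genes with both parts, 40 had CTTAGGC and 2 had GCGAGTT within 5 bases of the annotated gap. The windows below span this run, in capitals, with 17 bases on either side, from the R64 (sacCer3) reference genome. They are shown because the slip site defines these genes and because its surroundings sort the Ty1 copies, on which the changes turn. Windows of Ty1 are shared as stated by the number of genes.
Ty1, 10 genes, shown for YJR027W (chrX:474045-474085, plus strand): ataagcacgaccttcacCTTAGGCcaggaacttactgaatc
Ty1, 14 genes, shown for YBR012W-B (chrII:261154-261194, plus strand): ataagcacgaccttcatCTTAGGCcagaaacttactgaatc
Ty1, 2 genes, shown for YGR038C-B (chrVII:566142-566182, minus strand): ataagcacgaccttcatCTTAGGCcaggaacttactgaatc
Ty1, 1 gene, YNL284C-B (chrXIV:100907-100947, minus strand): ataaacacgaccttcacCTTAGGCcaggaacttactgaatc
Ty1, 2 genes, shown for YBL005W-B (chrII:222615-222655, plus strand): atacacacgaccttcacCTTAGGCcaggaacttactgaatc
Ty2, 9 genes, shown for YOR192C-B (chrXV:708419-708459, minus strand): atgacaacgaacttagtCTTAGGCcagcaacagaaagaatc
Ty4, 2 genes, shown for YJL113W (chrX:198982-199022, plus strand): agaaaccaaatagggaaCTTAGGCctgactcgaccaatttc
Ty3, 2 genes, shown for YGR109W-B (chrVII:708445-708485, plus strand): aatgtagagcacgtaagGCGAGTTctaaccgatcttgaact

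The tables hold 3 cellular genes that are also read through a forward frameshift, and are set beside the Ty genes below. These are OAZ1, which encodes antizyme, a regulator of polyamine synthesis, EST3, a telomerase subunit, and ABP140, an actin-binding protein that is also a tRNA methyltransferase. ABP140 has the same run as Ty1, while EST3 and OAZ1 have others.
ABP140 (chrXV:785668-785708, plus strand): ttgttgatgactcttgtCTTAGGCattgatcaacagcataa
EST3 (chrIX:335916-335956, minus strand): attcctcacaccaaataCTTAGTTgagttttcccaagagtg
OAZ1 (chrXVI:458986-459026, plus strand): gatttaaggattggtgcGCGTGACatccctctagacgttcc

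Because the copies are so alike, a read can often be placed at more than one of them. Of all 150-base windows along a gene, the share that occurs once in the reference genome had a median of 4.86% over the 41 genes, and 8 genes had no such window. The Ty3 genes were the easiest to tell apart, at 70.9% and 71.2%, and the Ty1 genes ranged up to 33.5% with a median of 2.93%. All 3 cellular frameshift genes were unique throughout. Longer windows, of 300 bases, were unique more often in many genes. Their share was 96.5% in YGR109W-B of Ty3 and 52.6% in YBL005W-B of Ty1, but 0% in YPR137C-B. The sources used here do not give the way in which reads with several placements were counted. Values of single Ty1 copies are those of the reads placed there, and sums over near-identical copies are given beside them. YPR137C-B, which has no unique window, still held 4400 and 5050 normalised reads in WT.

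The Ty genes took up a larger part of the reads in slow and a smaller part in fast. They held 0.759% and 0.879% of the table reads in fast, 3.58% and 3.86% in slow, and 1.01% and 1.29% in WT. Summed over the 41 genes, normalised read counts were 75319 and 85353 in fast, 230248 and 307524 in slow, and 107140 and 119559 in WT, and no library of one strain overlapped with another strain. The sum was 0.709 times that of WT in fast and 2.37 times in slow.

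Most of this came from Ty1. Its 28 genes summed to 55998 ± 4586 normalised reads in fast, 232498 ± 45313 in slow and 88500 ± 7902 in WT (SD, n = 2 each), which was 0.633 times WT in fast and 2.63 times in slow. The second slow library was the higher of the pair, at 264539 against 200457, and both lay above the WT libraries at 82912 and 94087. Over all genes the second slow library was also higher than the first, 1.23-fold at the median. Scaled by the table without the frameshift and mitochondrial genes, the Ty1 sums were 336068 and 359974 in slow and 82912 and 108384 in WT. The 9 Ty2 genes summed to 16376 ± 2377 in fast, 26733 ± 7756 in slow and 15478 ± 1493 in WT, so that only the slow libraries stood clear of WT. Ty4, a low-copy family, summed to 629 and 873 in fast, 906 and 1184 in slow, and 464 and 577 in WT, which was 1.44 times WT in fast and 2.01 times in slow. Ty3 summed to 7240 and 7182 in fast, 7637 and 9584 in slow, and 9342 and 8361 in WT, with the slow libraries on both sides of the WT ones. When libraries were scaled by the table without the frameshift and mitochondrial genes, the ratios of slow to WT were 3.64 for Ty1, 2.37 for Ty2, 1.36 for Ty3 and 2.77 for Ty4.

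**Figure D1:**
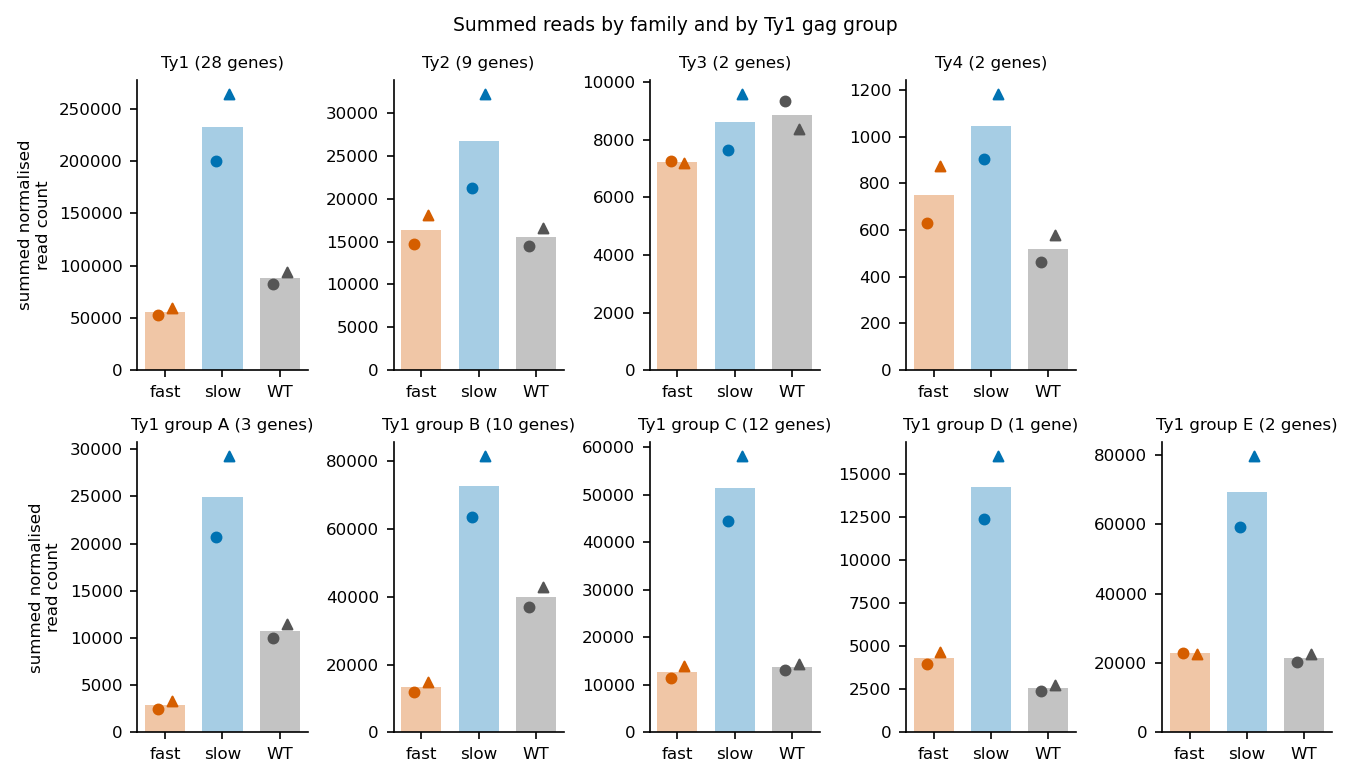
Normalised read counts summed over the genes of each Ty family (top) and of each Ty1 gag group (bottom), with 1 panel per family or group and fast, slow and WT from left to right. Points are libraries (circle, replicate 1; triangle, replicate 2) and bars are their means; Ty1 reached 200457 and 264539 reads in slow, and Ty3 showed no separation of slow from WT.

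All-class reads were then tested gene by gene with the quasi-likelihood test of edgeR over the 312 genes, with Benjamini-Hochberg adjustment and a threshold of 0.05. Of the 41 Ty genes 34 were higher and 1 was lower in slow than in WT. Over all 312 genes the share called was 15.1% higher and 25.6% lower, and 13 of the 271 other genes were called higher. The median log2 change was 1.03 over the Ty genes and -0.12 over all genes. Both slow libraries lay above both WT libraries for 37 of the 41 genes, against 25.3% of all genes. Scaled by the rest of the table, 168 genes were higher and 31 lower, 37 and 1 of them Ty genes, and the medians were 1.49 over the Ty genes and 0.37 over all genes. Under TMM scaling 103 genes were higher and 84 lower, of which 35 and 1 were Ty genes.

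In fast, 13 of the 41 Ty genes were lower than in WT and 1 was higher. Over all genes the share called was 5.45% lower and 3.21% higher, and 4 of the 271 other genes were called lower. That last count depended on the fit: 17 Ty genes and 25 others were lower under TMM scaling, 16 and 26 when scaled by the rest of the table, and 18 and 31 with DESeq2. The median log2 change was -0.36 over the Ty genes and 0.01 over all genes. Both fast libraries lay below both WT libraries for 23 Ty genes, against 26% of all genes. All 13 lower genes were Ty1, and no gene of Ty2, Ty3 or Ty4 was called in fast in this fit. Under other settings a few were, among them YOR192C-B of Ty2 and YGR109W-B of Ty3, both lower under TMM scaling, with DESeq2 and with only fast and WT fitted.

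Set against each other, fast was lower than slow in 34 Ty genes and higher in 1, while over all genes 14.4% were lower and 23.1% higher. The median log2 difference was -1.64 over the Ty genes and 0.12 over all genes. Scaled by the rest of the table, 34 genes were higher and 162 lower, with 37 Ty genes lower and none higher. The comparisons with WT share its libraries, and each is given here by its own values.

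**Figure D2:**
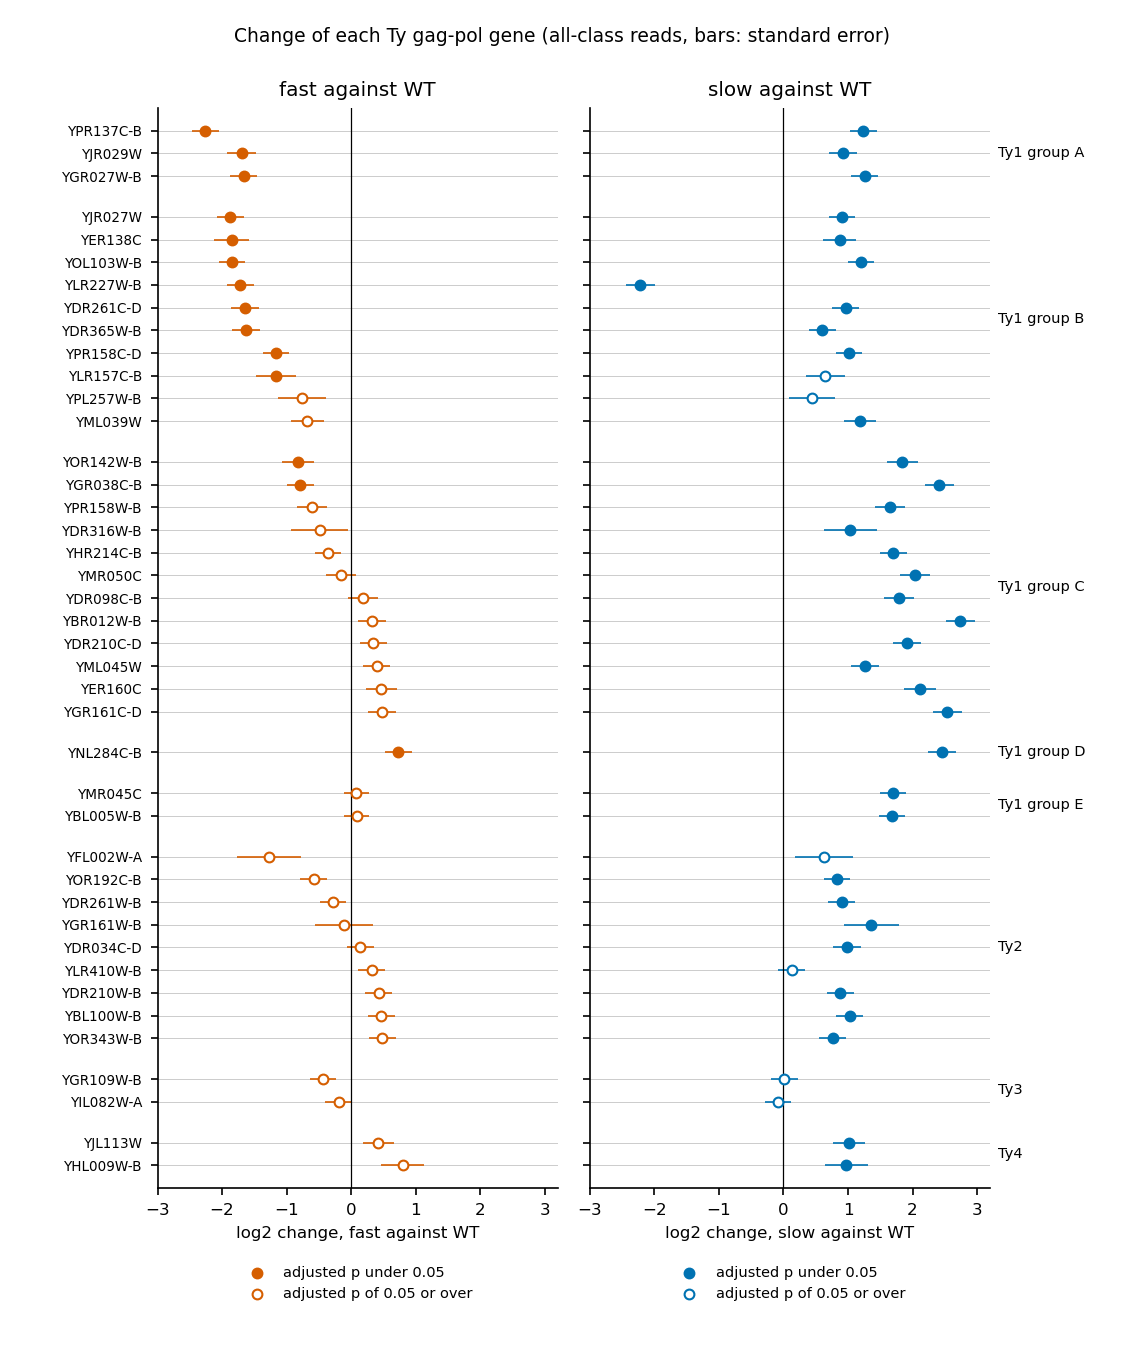
Log2 change of all-class reads of each of the 41 Ty gag-pol genes, fast against WT (left) and slow against WT (right), with 1 row per gene, grouped by family and by Ty1 gag group. Points are edgeR estimates with standard errors, filled where the adjusted p is under 0.05. The 13 genes called lower in fast are all in Ty1 groups A, B and C, and YLR227W-B is the single gene called lower in slow.

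The Ty1 copies did not move alike, and the changes of all-class reads fell largely along groups of similar GAG sequence. The GAG reading frames of the 29 listed Ty1 genes were aligned and joined by average linkage of their percent identity into 5 groups, a number set after the changes were seen, so the groups are a description and were not tested. Group A held YPR137C-B, YJR029W, YGR027W-B and the unmeasured YNL054W-B, group B 10 genes and group C 12. Group B was YJR027W, YER138C, YOL103W-B, YLR227W-B, YDR261C-D, YDR365W-B, YPR158C-D, YLR157C-B, YPL257W-B and YML039W. Identity was 98.9 to 99.8% within A, 99.2 to 100% within B and 99.4 to 100% within C, and 97.6 to 99.4% between these 3 groups. Group D was YNL284C-B alone, at 90.3 to 92.2% identity to A, B and C. Group E was YMR045C and YBL005W-B, which were 99.3% identical to each other, 92.6% identical to D and 85.1 to 86.5% to A, B and C.

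Groups A and B held 11 of the 13 genes that were lower in fast. All 3 measured genes of A and 8 of the 10 genes of B were lower, with log2 changes of -2.26 to -1.66 in A and -1.87 to -0.68 in B. The 2 genes of B that were not called were YML039W and YPL257W-B, at -0.68 and -0.76. In C 2 of 12 genes were lower, YOR142W-B at -0.83 and YGR038C-B at -0.79, and the median of the group was 0.01. Summed over the genes of a group, fast was 0.268 times WT in A, 0.333 times in B, 0.928 times in C, 1.66 times in D and 1.06 times in E.

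The sums themselves showed how far apart the libraries were. Group A summed to 2455 and 3320 normalised reads in fast, against 10039 and 11497 in WT. Group B summed to 11815 and 14778 in fast, against 37092 and 42782 in WT. In E they were 23012 and 22605 in fast, against 20336 and 22698 in WT, so that strains overlapped there and were well apart in A and B.

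In slow the order of the groups differed. The sums were 2.32 times WT in A, 1.82 times in B, 3.75 times in C, 5.49 times in D and 3.23 times in E. All 12 genes of C were higher, with log2 changes of 1.04 to 2.74 and a median of 1.88. Besides the genes described below, these were YMR050C at 2.04, YDR210C-D at 1.92, YOR142W-B at 1.84, YDR098C-B at 1.79, YHR214C-B at 1.70, YPR158W-B at 1.65 and YML045W at 1.26. In A all 3 measured genes were higher, at 0.92 to 1.26. In B 7 of 10 were higher and 1 lower, with a median of 0.89. YLR157C-B and YPL257W-B of B, at 0.65 and 0.45, were the Ty1 genes not called in slow.

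**Figure D3:**
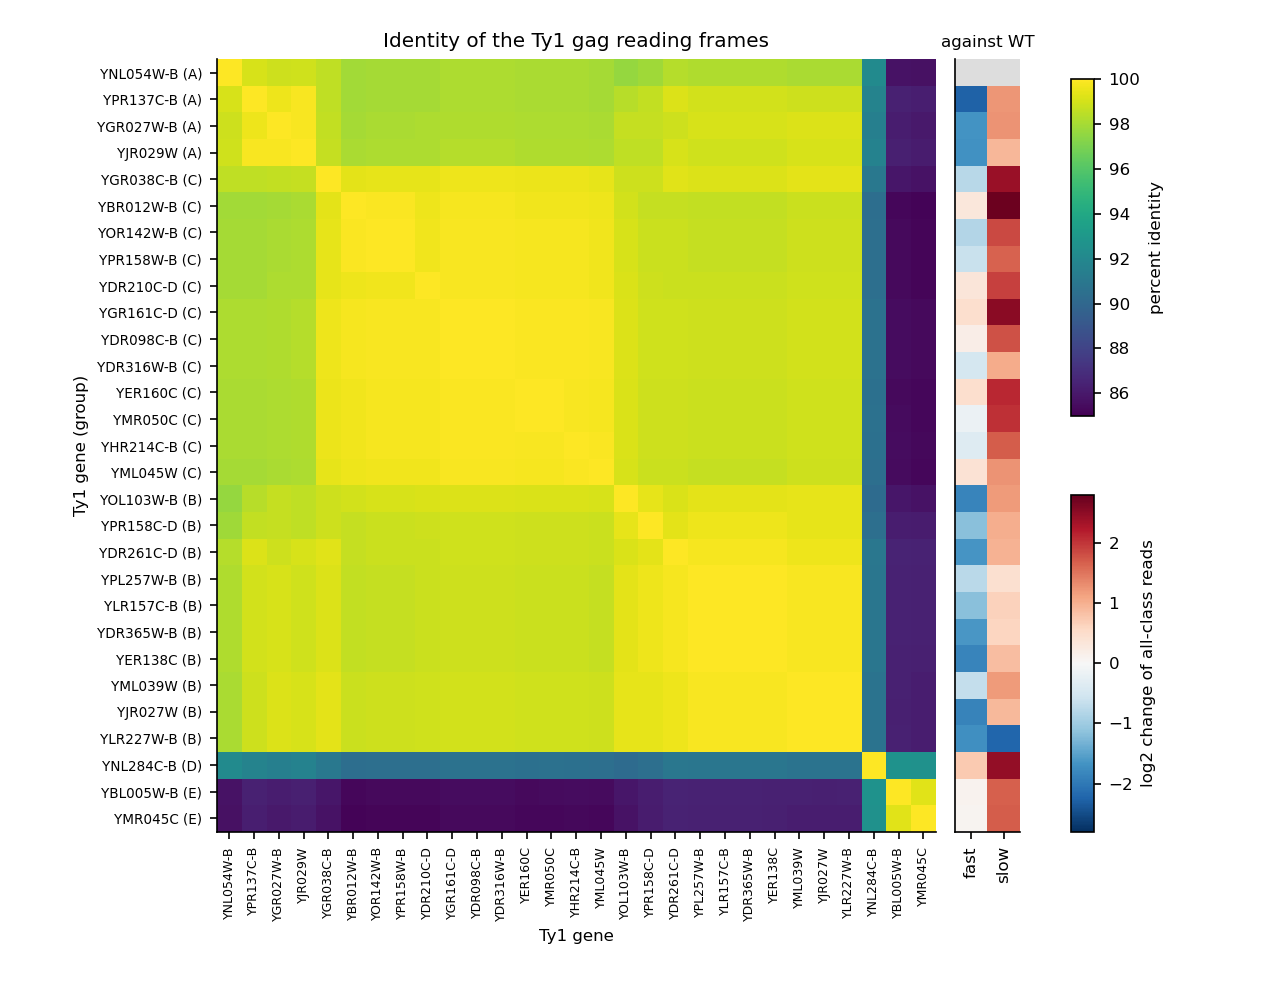
Percent identity of the GAG reading frames of the 29 Ty1 genes (colour, left block; rows and columns in the order of the clustering, group letter in parentheses) with the log2 change of all-class reads in fast and in slow against WT (right strips, blue lower and red higher). The rows of groups A and B are blue in fast at -2.26 to -0.68, and those of C, D and E range from -0.83 to 0.73; YNL054W-B is grey as it was not measured.

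The windows around the slip site gave a partly similar division. They hold the end of the same GAG frames, so they are not separate from the groups. Of the 10 Ty1 genes with the first window shown above, 8 were lower in fast, and the other two were again YML039W and YPL257W-B. Of the 13 measured genes with the second window 4 were lower. These were YPR137C-B and YJR029W of group A, YDR261C-D of B and YOR142W-B of C. Of the 2 genes with the third window 1 was lower, YGR038C-B. The 2 genes of the window shown for YBL005W-B and the gene YNL284C-B were not lower.

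Among the genes lower in fast, YPR137C-B (chromosome XVI, 805001 to 810269, minus strand) changed most. It had 901 and 1075 normalised reads in fast, against 4400 and 5050 in WT, a log2 change of -2.26 ± 0.22 (SE, adjusted p = 6.24e-22). In slow it had 9223 and 13067, all above WT, with a log2 change of 1.24 ± 0.21 (adjusted p = 4.37e-08). The 3 strains thus stood in the order fast, WT, slow with no overlap.

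YJR027W (chromosome X, 472760 to 478028, plus strand) had 1993 and 2951 reads in fast, against 7909 and 10219 in WT, a log2 change of -1.87 ± 0.21 (adjusted p = 2.06e-16). YOL103W-B (chromosome XV, 118000 to 123268, plus strand) had 2673 and 3049 in fast, against 9944 and 10633 in WT, at -1.85 ± 0.21 (adjusted p = 2.06e-16). YER138C (chromosome V, 443756 to 449024, minus strand), with far fewer reads, had 104 and 148 in fast, against 386 and 522 in WT, at -1.85 ± 0.27 (adjusted p = 5.90e-10). In all of them both fast libraries were below both WT libraries, and in slow their log2 changes were 0.91, 1.20 and 0.87, each past the threshold.

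YLR227W-B (chromosome XII, 593438 to 598706, plus strand) was lower in both mutants. It had 1303 and 1517 reads in fast and 938 and 1060 in slow, against 4175 and 5094 in WT. The log2 change was -1.72 ± 0.21 in fast (adjusted p = 2.13e-13) and -2.21 ± 0.22 in slow (adjusted p = 1.36e-21). It was the single Ty gene called lower in slow, and the only one called higher in fast than in slow, at 0.50 ± 0.21 (adjusted p = 0.0486).

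The other genes lower in fast ranged from -1.70 for YJR029W to -0.79 for YGR038C-B. Besides these they were YGR027W-B at -1.66, YDR261C-D at -1.65, YDR365W-B at -1.64, YPR158C-D and YLR157C-B both at about -1.16, and YOR142W-B at -0.83. In YDR365W-B, for example, the fast libraries had 591 and 808 reads, against 2078 and 2268 in WT, with no overlap. The calls of YOR142W-B, YGR038C-B and YLR157C-B were lost in some fits without 1 fast or WT library, while their direction was kept.

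YNL284C-B (chromosome XIV, 96964 to 102232, minus strand), group D, rose in both mutants. It had 3957 and 4656 reads in fast, 12429 and 16064 in slow, and 2423 and 2768 in WT. The log2 change was 0.73 ± 0.21 in fast (adjusted p = 0.00599) and 2.46 ± 0.22 in slow (adjusted p = 1.46e-26). The call in fast was lost when any 1 of the 4 fast and WT libraries was left out, and that in slow was kept in every alternative. No other Ty gene was called higher in fast, although 5 more passed an unadjusted p of 0.05. At that level 6 Ty genes in all were higher, among 27 of the 312 genes.

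The largest increase in slow was that of YBR012W-B (chromosome II, 259869 to 265140, plus strand), group C. It had 3961 and 5504 reads in slow, against 635 and 779 in WT, a log2 change of 2.74 ± 0.22 (adjusted p = 2.72e-30). YGR161C-D (chromosome VII, 817747 to 823015, minus strand) had 3017 and 4042 in slow, against 584 and 632 in WT, at 2.54 ± 0.23 (adjusted p = 4.21e-26). Both had slightly more reads in fast than in WT as well, at log2 changes of 0.32 and 0.48 that missed the threshold (adjusted p = 0.466 and 0.175).

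YGR038C-B (chromosome VII, 562199 to 567467, minus strand) combined a strong increase with a decrease. It had 562 and 731 reads in fast and 5785 and 6118 in slow, against 1084 and 1144 in WT, so that the strains were apart on either side of WT. The log2 change in slow was 2.42 ± 0.22 (adjusted p = 3.06e-25). YER160C (chromosome V, 492856 to 498124, minus strand) had 949 and 1526 in slow, against 271 and 301 in WT, at 2.11 ± 0.25 (adjusted p = 7.64e-16).

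Levels per kilobase spanned a wide range within a family. In Ty1 the highest was YMR045C (chromosome XIII, 357359 to 362627), with 2267 normalised reads per kb in fast, 6972 in slow and 2143 in WT. Its log2 change was 0.08 ± 0.20 in fast (adjusted p = 0.944) and 1.70 ± 0.20 in slow (adjusted p = 1.60e-15). YBL005W-B, the other gene of group E, followed with 2062, 6200 and 1940 reads per kb in fast, slow and WT. The lowest Ty1 gene was YDR316W-B, which has no unique window, with 28.9 per kb in slow and 14.1 in WT. Its increase in slow of 1.04 ± 0.42 passed narrowly (adjusted p = 0.0343), and the call was lost in fits without 1 slow or WT library.

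**Figure D4:**
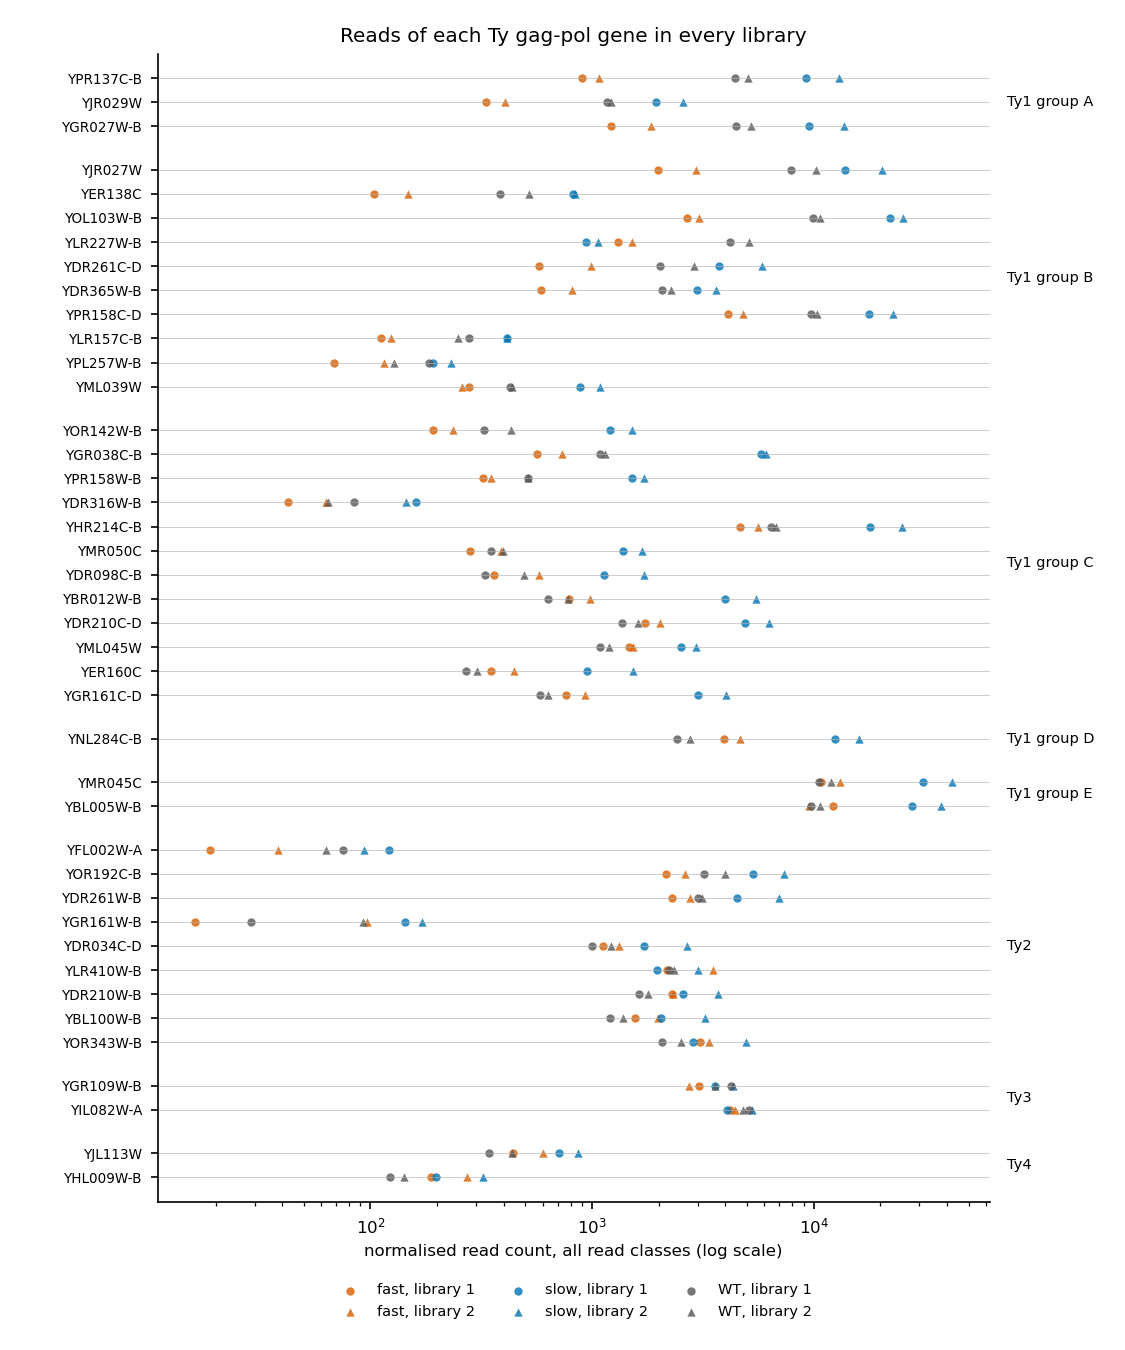
Normalised read counts of all read classes (log scale) for each of the 41 Ty gag-pol genes in the 6 libraries, with 1 row per gene, grouped by family and by Ty1 gag group (fast orange, slow blue, WT grey; circle, replicate 1; triangle, replicate 2). In groups A and B the fast points lie left of WT for every gene, and the slow points lie right of WT except in YLR227W-B, at 938 and 1060 reads.

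Of the 9 Ty2 genes, 7 were higher in slow, with a family median of 0.88. Among them YDR034C-D was at 0.99 and YOR343W-B at 0.76, with both slow libraries above both WT libraries in each. YOR192C-B (chromosome XV, 704419 to 709732), the highest per kb, had 5323 and 7381 reads in slow, against 3185 and 3971 in WT, a log2 change of 0.83 ± 0.21 (adjusted p = 4.92e-04). In fast it had 2160 and 2631, at -0.58 ± 0.21, which missed the threshold (adjusted p = 0.0553) but passed it under TMM scaling (adjusted p = 0.0378), with DESeq2 (adjusted p = 0.00442) and with only fast and WT fitted (adjusted p = 0.00336). The lowest, YFL002W-A, which has no unique window, had 19 and 38 reads in fast, 121 and 94 in slow, and 75 and 63 in WT, and was not called in either mutant. YLR410W-B was the other Ty2 gene not called in slow, at 0.13 ± 0.21, where the libraries overlapped with WT. YGR161W-B, at 1.36 ± 0.42, had only 29 and 92 reads in WT, and lost its call with DESeq2 and with other scalings.

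Both Ty4 genes were higher in slow. YJL113W (chromosome X, 198678 to 203325) had 709 and 862 reads in slow, against 342 and 435 in WT, at a log2 change of 1.01 ± 0.24 (adjusted p = 3.16e-04). YHL009W-B (chromosome VIII, 85909 to 91318) had 197 and 322 in slow, against 122 and 142 in WT, at 0.98 ± 0.33 (adjusted p = 0.0137). In fast they had 441 and 601 reads and 188 and 272 reads, and the changes of 0.42 and 0.80 missed the threshold (adjusted p = 0.375 and 0.123). Each Ty4 call was lost without the first WT library.

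Neither Ty3 gene was called in either mutant in the fit over all strains, and other settings changed this. YGR109W-B (chromosome VII, 707610 to 712254) had 3035 and 2751 reads in fast, 3585 and 4303 in slow, and 4240 and 3570 in WT. Its log2 change was -0.43 ± 0.21 in fast (adjusted p = 0.217) and 0.01 ± 0.21 in slow (adjusted p = 0.969). YIL082W-A (chromosome IX, 205635 to 210132) had 4205 and 4432 in fast, 4051 and 5281 in slow, and 5102 and 4791 in WT, with changes of -0.20 and -0.08. The decrease of YGR109W-B in fast was called under TMM scaling (adjusted p = 0.0172), when scaled by the rest of the table (adjusted p = 0.0179), with DESeq2 (adjusted p = 3.76e-04) and with only fast and WT fitted (adjusted p = 0.0376). In slow YGR109W-B was called higher under TMM scaling, at 0.27 (adjusted p = 0.0483), and at 0.51 when scaled by the rest of the table (adjusted p = 0.00331). The change of YIL082W-A in slow turned to 0.40 (adjusted p = 0.0103) when libraries were scaled by the rest of the table, a scaling under which the median of all genes was 0.37 in place of -0.12.

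The cellular frameshift genes showed smaller changes. OAZ1 had 1191 and 1727 reads in fast, 1181 and 1523 in slow, and 1475 and 1324 in WT, with log2 changes of 0.06 and -0.05. ABP140 had 4256 and 4794 in fast, 5513 and 6282 in slow, and 6324 and 5885 in WT, with changes of -0.43 and -0.05. EST3 had 3064 and 3529 in slow, against 5078 and 4421 in WT, and was lower at -0.53 ± 0.21 (adjusted p = 0.0290), a call lost under TMM scaling and without any 1 library except the second slow one. In fast it had 4531 and 3912, at -0.17. None of the 3 was called in fast in this fit, but the decrease of ABP140 was called with DESeq2 (adjusted p = 9.61e-05), under both other scalings and with only fast and WT fitted. In slow ABP140 turned to 0.44 (adjusted p = 0.00901) when scaled by the rest of the table.

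Reads within GAG and within POL were tested apart. In slow, POL reads were higher in 32 Ty genes and lower in 1, where 13.4% of the 305 genes tested were higher and 24.9% lower. GAG reads were higher in 15 Ty genes and lower in none, where 18.5% of the 92 genes tested were higher and 9.78% lower. These 92 include the 41 Ty genes, and of the 51 others 2 were higher and 9 lower. Of the Ty genes called higher in GAG, 1 was Ty2 and 14 were Ty1. The median log2 change over the Ty genes was 1.26 in POL and 0.73 in GAG.

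In fast, POL reads were lower in 14 Ty genes and higher in none, where 5.57% of the genes tested were lower and 1.97% higher. GAG reads were lower in 9 Ty genes and higher in 3, where 12% were lower and 7.61% higher. Of the 51 other genes tested in GAG, 2 were lower and 4 higher. All 10 genes of Ty1 group B were lower in POL. In GAG 3 of these 10 were lower, with log2 changes of -2.45 to 1.23 and a median of -0.77. Of the 3 measured genes of group A, 3 were lower in POL and 2 in GAG. The genes higher in GAG in fast were YNL284C-B at 1.14, YDR210C-D at 0.82 and YML045W at 0.81. YML045W was at the same time lower in POL, at -1.05 (adjusted p = 0.00366), with 152 and 225 POL reads in fast, against 366 and 417 in WT.

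The balance of the parts differed between copies even in WT. Per base, POL held 0.0307 times the reads of GAG in YOL103W-B and 22.8 times in YGR027W-B, and 24 of 41 Ty genes lay more than 3-fold from equality. In YOL103W-B the WT libraries had 9042 and 9654 GAG reads and 854 and 888 POL reads. In YGR027W-B they had 78 and 60 GAG reads and 4391 and 5171 POL reads. The same ratio ran from 0.993 to 2.20 in the cellular frameshift genes. GAG and POL of a Ty1 copy lie on 1 RNA, and how placement among copies bears on these ratios was not tested.

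The POL to GAG ratio differed from WT by more than 0.5 on the log2 scale in 17 Ty genes in fast and in 22 in slow, with medians of -0.03 and 0.50, but few of these differences passed the test. Differences of this size were not counted over the other genes. The medians were -0.07 in fast and 0.22 in slow over all 85 genes tested, and -0.08 and 0.03 over the 44 others. In fast it was called in no Ty gene (0% of 85 genes tested higher and 0% lower, edgeR). At an unadjusted p under 0.05, 3 Ty genes were higher and 7 lower, against 6 and 9 over all 85 genes. With DESeq2, 2 Ty genes were higher and 6 lower, against 4 and 8 over all genes. In slow it was higher in 4 Ty genes and lower in 1, where 4.71% of the genes tested were higher and 1.18% lower. The genes tested include the 41 Ty genes, and none of the 44 others was called. At an unadjusted p under 0.05 there were 12 Ty genes higher and 1 lower, against 16 and 2 over all 85 genes. The adjusted calls of Ty genes were 12 and 1 with DESeq2, against 14 and 2 over all genes. With at least 60 reads they were 8 and 1, and the same over all genes. No call was left when any 1 of the 6 libraries was left out or when only slow and WT were fitted.

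The 4 genes with a higher ratio in slow were YDR210W-B, YBL100W-B and YDR261W-B of Ty2 and YBL005W-B of Ty1. YDR210W-B had 1431 and 2072 POL reads in slow, against 604 and 611 in WT, and 825 and 1250 GAG reads in slow, against 950 and 1030 in WT. Its ratio changed by 1.47 ± 0.20 (adjusted p = 0.0273). YBL100W-B had 1542 and 2411 POL reads in slow, against 641 and 743 in WT, while its GAG reads overlapped between the strains, and its ratio changed by 1.40 ± 0.20 (adjusted p = 0.0273). The changes were 0.82 ± 0.15 in YDR261W-B and 0.72 ± 0.14 in YBL005W-B (adjusted p = 0.0412 each).

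YLR227W-B had the lower ratio, at -4.08 ± 0.75 (adjusted p = 0.0412). Its POL reads were 319 and 506 in slow, against 3888 and 4833 in WT, a log2 change of -3.40 ± 0.24 (adjusted p = 4.67e-40). Its GAG reads were few, at 213 and 86 in slow, against 102 and 75 in WT, at 0.76 ± 0.50 (adjusted p = 0.266). In fast it had 1101 and 1375 POL reads, at -1.82 ± 0.22 (adjusted p = 9.71e-14). Its loss of reads was thus seen within POL in both mutants. Reads of its other classes, which were not tested apart, were more in slow than in WT and fewer in fast.

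**Figure D5:**
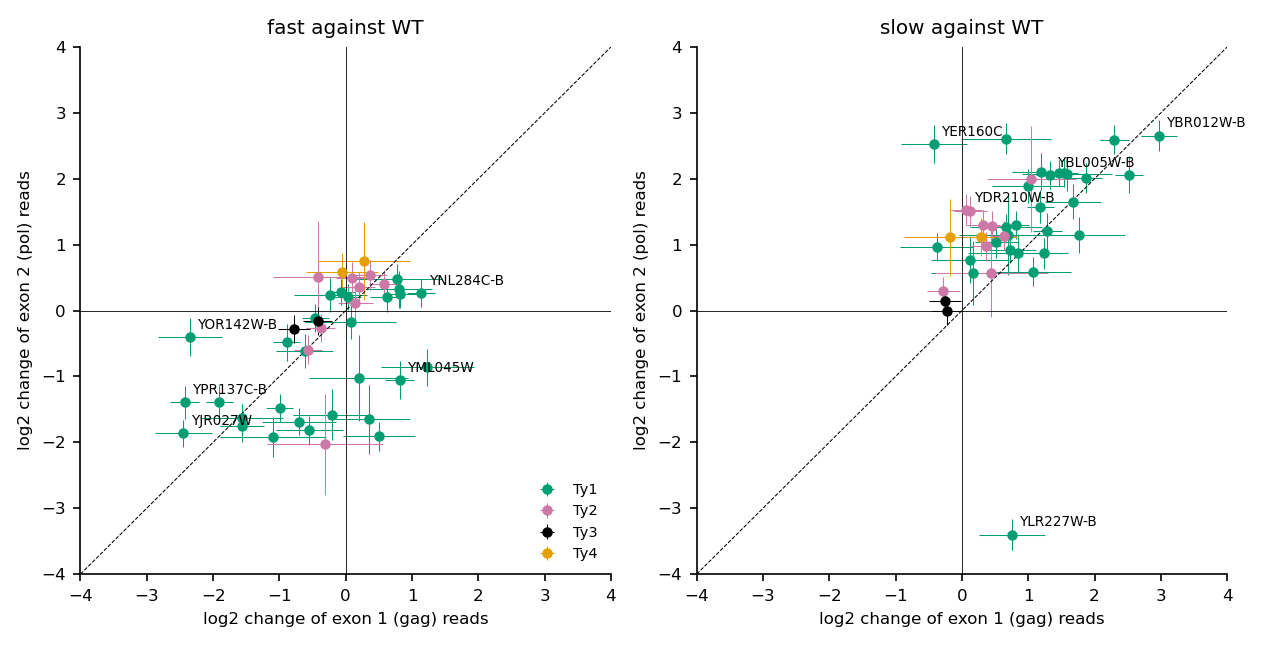
Log2 change of GAG reads (exon 1, horizontal axis) and of POL reads (exon 2, vertical axis) of the 41 Ty genes, fast against WT (left) and slow against WT (right), coloured by family, with standard errors and a dashed line of equal change. In slow 33 of the 41 genes have a fitted POL to GAG ratio above WT. The median log2 change of the ratio in slow is 0.50 over the 41 Ty genes and 0.03 over the 44 other genes tested. YLR227W-B stands alone at -3.40 in POL in slow. In fast the lower Ty1 genes spread from -2.45 to above 0 in GAG.

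Reads of the junction class, between GAG and POL, made up 6.05% and 5.19% of the Ty reads in fast. They made up 4.20% and 3.76% in slow, and 3.90% and 3.21% in WT. Another class, of reads over GAG, the gap and POL, held 0.214% and 0.202% in fast. It held 0.206% and 0.238% in slow, and 0.247% and 0.209% in WT. Split reads inside the Ty genes, apart from those at the annotated gap, were few and mostly placed at several positions. They numbered 16 and 50 unique reads in fast, 43 and 101 in slow, and 15 and 18 in WT, and 88.1 to 97.6% of all such reads had several placements, against 1.01 to 2.75% of the split reads of a whole library. No junction inside a Ty gene had 5 unique reads in both libraries of a strain.

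The share of unique sequence moved with the changes in fast to some degree, and its part in them was not tested. The 13 genes lower in fast had unique shares of 0 to 11.4%, with a median of 0.643%, and the other 28 had 0 to 71.2%, with a median of 10.6%. Across the 41 genes the unique share and the log2 change in fast had a Pearson r of 0.37 and a Spearman rho of 0.52. In slow r was -0.20 and rho -0.10. Within the 28 Ty1 genes r was 0.48 and rho 0.42 in fast. There the sign in slow was the other way, with r of 0.27 and rho of 0.31. These are descriptions across genes that share libraries and sequence. Of the 15 genes with a unique share above 10%, 12 were higher in slow, 1 was lower in fast (YPR158C-D) and 1 was higher in fast.

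Genes with introns whose products are tied to Ty expression gave a mixed picture. GCR1, a transcription factor of glycolytic genes needed for Ty2 expression, had 7876 and 8856 reads in fast, 12206 and 15574 in slow, and 10751 and 11537 in WT, with log2 changes of -0.41 (adjusted p = 0.220) and 0.32 (adjusted p = 0.213). NMD2, which encodes the partner of UPF1 in nonsense-mediated decay, had 4112 and 5937 in fast, 5110 and 7947 in slow, and 2048 and 2568 in WT. It rose 2.18-fold in fast (adjusted p = 2.20e-06) and 2.83-fold in slow (adjusted p = 2.43e-11), and the call in fast was lost without the second fast library. TAF14, a subunit of general transcription factors and chromatin remodellers, SRB2, a Mediator subunit, YRA1, an mRNA export factor, and UBC4, a ubiquitin-conjugating enzyme, were not called in either mutant in the fit over all strains. Scaled by the rest of the table, all 4 were called higher in slow, at 0.36, 0.35, 0.59 and 0.48, against a median of 0.37 over all genes. YRA1 and GCR1 were called in both mutants with DESeq2 and under both other scalings, GCR1 lower in fast and higher in slow and YRA1 higher in both. The log2 change of TAF14 was -0.03 in fast and -0.13 in slow. That of SRB2 was 0.02 in fast and -0.15 in slow, that of YRA1 0.52 in fast and 0.10 in slow, and that of UBC4 0.05 in fast and -0.02 in slow.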

How the data were processed

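RNA of 3 strains (fast, slow and WT RPB1, all without UPF1) was analysed in 2 libraries each, grouped by their labels. The authors aligned the reads with STAR (version not given in the sources used here) to R64 (sacCer3) and counted read pairs per gene and read class with the dice-count function of DICEseq. They deposited raw counts per gene and class, FPKM values beside them, and raw counts of split reads per junction from STAR. The treatment of multiply placed reads was not given in the sources used here. From the deposited FPKM only the relative library total was taken, as the median of count divided by FPKM.

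Counts of all classes, of exon 1 and of exon 2 with at least 10 reads over the libraries went into quasi-likelihood tests in edgeR 4.0.16 under R 4.3.3, all strains in one fit, with Benjamini-Hochberg adjustment over all genes of the table. For all-class and exon 2 reads the estimated prior degrees of freedom were infinite, so the spread was shared over genes. The ratio was tested as the interaction of part and strain. Depth was 7682741 to 11033195 reads per library in the tables and 4127729 to 6863818 unique split reads. Fits were tested on simulated data. Alternatives were TMM, scaling by the rest of the table, DESeq2 1.42.0, other filters, 2 strains only, a replicate block and leaving out each library. GAG frames were aligned with MAFFT 7.526. Unique windows were 150 bases long, and 300 bases where stated. The p-values rest on the spread between the 2 libraries of a strain, pooled over the strains of the fit. For all-class and exon 2 reads this spread was also shared over genes. There, p-values and standard errors do not measure the spread of a single gene between its libraries.

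Named genes were, for each mutant and direction, the 5 called Ty genes with the largest change and no overlap with WT; the highest and lowest per kb of each family; up to 5 called for the ratio; all of families with up to 5 genes; and the listed cellular genes. SUS1 of the second list was not in the tables. Other names were chosen after their values were seen. The genes and lists were chosen with earlier results of these data known.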

Additional observations from a re-analysis of the deposited data

How the results depend on the processing

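All-class calls kept their direction in every alternative. The number of Ty genes called in fast was 14, and 22 with DESeq2 (4 higher and 18 lower, including all 14), while TMM, the other scaling, other filters, 2 strains only and leaving out a library gave 10 to 20. In slow it was 35 and ranged from 24 to 38, the lowest without WT replicate 1, and in fast against slow 35 with a range of 29 to 37. Among all 312 genes, 27 were called in fast, with a range of 14 to 87. In slow 127 were, with a range of 33 to 199. GAG reads in slow gave 15 called Ty genes, and 24 when scaled by the rest of the table, and in fast 12, with a range of 7 to 17 without 1 library, where the lowest was without WT replicate 2. Scaled by the rest of the table, all genes split as 32 higher and 4 lower in GAG in slow (17 and 9 otherwise), 147 and 29 in POL in slow (41 and 76), and 26 and 40 in POL in fast (6 and 17). The ratio of POL to GAG was the least stable result. With DESeq2 it was called in 12 of all genes in fast and in 16 in slow. In fast it was called in 0 Ty genes, in 8 with DESeq2, in 1 with at least 60 reads and in 0 to 1 without 1 library. In slow it was called in 5, in 13 with DESeq2, in 9 with at least 60 reads, in 0 with only 2 strains and in 0 without any 1 library. Family sums of slow over WT became 3.64 (Ty1), 2.37 (Ty2), 1.36 (Ty3) and 2.77 (Ty4) when scaled by the rest of the table. The cause of these shifts was not tested.

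With a replicate block, the count of Ty genes called was 17 in fast, 36 in slow and 35 in fast against slow, and for the ratio 1 in fast and 8 in slow. It added calls of YML039W (-0.68, adjusted p = 0.0176), YOR192C-B (-0.58, adjusted p = 0.0262) and YPR158W-B (-0.62, adjusted p = 0.0228) in fast and of YLR157C-B (0.65, adjusted p = 0.0426) in slow, and ended no all-class call of a Ty gene. Over all genes the block gave 33 calls in fast, 86 in slow and 91 in fast against slow. The fit without it gave 27, 127 and 117. For the ratio the block gave 1 call in fast and 8 in slow over all genes. Of the ribosomal protein genes 29 were lower in slow with the block. The replicate numbers name samples and nothing in the labels ties them across strains. Over all genes, deviations of same-numbered libraries correlated at 0.49 between fast and WT, 0.31 between slow and WT and 0.27 between fast and slow. Over the Ty genes these correlations were 0.6, 0.29 and -0.12.

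Signs turned only in genes that were not called in the fit over all strains. Scaled by the rest of the table, the turned values in slow passed the threshold in UBC4 (edgeR, adjusted p = 0.00296), ABP140 (0.00901), YIL082W-A (0.0103), TAF14 (0.0130) and SRB2 (0.0365). In slow, DESeq2, TMM scaling and scaling by the rest of the table gave 0.056, 0.16 and 0.40 for YIL082W-A, 0.14, 0.24 and 0.48 for UBC4, 0.0039, 0.10 and 0.35 for SRB2, 0.10, 0.20 and 0.44 for ABP140, 0.093, 0.19 and 0.43 for OAZ1, and 0.016, 0.12 and 0.36 for TAF14. Without 1 library, log2 changes in fast ranged from -0.10 to 0.26 in YBL005W-B, -0.19 to 0.50 in YDR098C-B, -1.90 to 0.95 in YGR161W-B, -0.074 to 0.63 in YLR410W-B, -0.066 to 0.21 in YMR045C, -0.41 to 0.052 in YMR050C, -0.076 to 0.18 in UBC4, -0.21 to 0.30 in SRB2, -0.23 to 0.30 in OAZ1 and -0.071 to 0.017 in TAF14. In slow they ranged from -0.12 to 0.14 in YGR109W-B, -0.29 to 0.094 in YIL082W-A, -0.21 to 0.40 in YLR410W-B, -0.15 to 0.11 in UBC4, -0.053 to 0.25 in YRA1, -0.38 to 0.13 in SRB2, -0.15 to 0.042 in ABP140, -0.24 to 0.12 in OAZ1 and -0.28 to 0.0077 in TAF14. Where a library was left out of a strain, the remaining one was assumed to vary like the other strains. Genes with under 100 reads in each WT library, such as YFL002W-A and YGR161W-B, allowed only large changes to be called.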

Other observations

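One further Ty2 gag-pol gene of the tables, YCL019W, was not on the list of genes. It had 3071 and 3946 normalised reads in fast, 14185 and 19079 in slow, and 4188 and 4476 in WT. Its log2 change was -0.30 ± 0.20 in fast (edgeR, adjusted p = 0.479) and 1.94 ± 0.21 in slow (adjusted p = 5.18e-18), above the range of 0.13 to 1.36 of the 9 listed Ty2 genes in slow. Its GAG and POL reads both rose in slow, by 1.76 and 2.16.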
